A study of Mus musculus with 6 samples.

Results

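The uroplakins Upk1a, Upk1b, Upk2, Upk3a and Upk3b and the epithelial keratins Krt5, Krt7, Krt8, Krt18 and Krt19 were followed in mouse renal cortex on 6 one-colour microarrays. They were taken as every non-control probe carrying one of these 10 gene names, which gave 12 probes of the 56470 kept on the array and 10 of its 37007 names. The genes had been picked with their values on these same 6 arrays in view, so differences between the groups are given as a description, without support from any test. Total RNA came from whole pieces of flash-frozen cortex of male mice aged 16 weeks. The labels set 3 control samples with the db/m genotype, heterozygous for the leptin receptor mutation, against 3 model samples with the db/db genotype, homozygous for it and therefore obese and diabetic, and mention 8 weeks of treatment with Huangqi decoction (HQD), a herbal preparation based on Astragalus root. The study's methods describe the arrays differently, as treated and non-treated db/db mice on the C57BLKS/J background, and name no dose for them. The groups are therefore called labelled db/m and labelled db/db, the arrays db/m 1 to 3 and db/db 1 to 3 after their labels, and a positive difference means a higher mean under the db/m label (n = 3 each).

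Uroplakins are the membrane proteins of the urothelium, the lining of the renal pelvis, ureter and bladder, where they assemble into the rigid plaques of the superficial umbrella cells. The tetraspanins Upk1a and Upk1b each pair with a single-pass partner, Upk2 for Upk1a and Upk3a or Upk3b for Upk1b, and Upk3b is also made by mesothelium. Keratins are the intermediate filament proteins of epithelia and polymerise as pairs of a type I chain, here Krt18 or Krt19, and a type II chain, here Krt5, Krt7 or Krt8. Krt5 marks basal cells of layered epithelia such as the urothelium, whereas Krt7, Krt8, Krt18 and Krt19 belong to simple epithelia, including the collecting duct.

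Signals are given on the log2 scale relative to the 75th percentile of the same array, so that 0 is a signal equal to that percentile, and a signal was taken as measured where the scanner software flagged it as well above background. The share of probes so flagged ran from 54.0% to 59.0% on the labelled db/m arrays and from 51.6% to 57.4% on the labelled db/db arrays. The correlation between pairs of arrays across all tested probes was between 0.981 and 0.993. db/m 1 shared a slide with db/db 3, db/m 2 shared one with db/m 3, and db/db 1 shared one with db/db 2, and each slide was scanned at its own time.

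The uroplakins differed more between the highest and lowest labelled db/m arrays than between the group means, and they were bright on the same arrays. All 5 were measured on db/m 1 and db/m 3, 4 of them on db/db 1, 2 on db/db 3, and only Upk1a on db/m 2 and db/db 2. db/m 3 was the highest and db/m 1 the next in 5 of 5 genes, and db/db 1 came next in the 4 genes measured there. The first 30 bases of each 60-base probe are shown to identify what was measured, as the scanner files give them, with the mm9 position of the whole probe.
Upk1a: tcccatcatcaccccaacatgtgtctgagc (chr7:31388111-31388170, minus strand)
Upk1b, brighter probe: ttctgctgtgacttctgtctgcagtgttcc (chr16:38773592-38773651, minus strand)
Upk1b, dimmer probe: ctatataagacagaaagtttggagaatgga (chr16:38773859-38773918, minus strand)
Upk2: cccactgcaatcctgccaacactgatttat (chr9:44260822-44260881, minus strand)
Upk3a: gctttgtggacatgggcagttctgatgggg (chr15:84851819-84852720, plus strand)
Upk3b: tcaccaagtgtactggttagagagtgtaaa (chr5:136520522-136520581, plus strand)
No run of 25 bases in these probes occurred in a probe of another name on either strand. The Upk3a probe spanned 902 bases of the genome and the others 60, and exon and intron annotation of mm9 was not used here.

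Upk1a was the only uroplakin measured on all 6 arrays. Its log2 signal was 0.73, -1.80 and 1.92 on db/m 1 to 3, and 0.47, -1.17 and -0.65 on db/db 1 to 3. The scanner intensities behind these values were 1710, 219.7 and 3622 in the first group, against 1247, 386 and 603 in the second. db/m 2 was therefore the lowest array and db/m 3 the highest, and all labelled db/db arrays lay between them. The group means were 0.28 ± 1.90 and -0.45 ± 0.84 (SD, n = 3 each), and their difference was 0.73 ± 0.93 (SE), with a 95% interval from -1.48 to 2.94. Single arrays decided this value, which was -0.09 without db/m 3 and 1.77 without db/m 2.

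Upk1b, the other tetraspanin, had 2 probes. Its brighter probe read -1.79, -4.84 and -0.36 on the labelled db/m arrays, and -2.57, -5.94 and -5.00 on the labelled db/db arrays, and it was measured on db/m 1, db/m 3 and db/db 1 only. The dimmer probe read -3.68, -5.94 and -1.88, against -4.94, -5.95 and -6.01, and was measured on db/m 1 and db/m 3. Both probes placed db/m 3 above db/m 1 and db/db 1 below both.

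Upk2, the partner of Upk1a, followed the same arrays. Its signal was -2.19, -6.15 and -0.75 on db/m 1 to 3, and -3.53, -6.20 and -6.32 on db/db 1 to 3. It was measured on db/m 1, db/m 3 and db/db 1, and the remaining 3 arrays were not well above background. Values there have no order among themselves.

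Upk3a, the partner of Upk1b, showed the widest spread of the 10 genes. Its signal was 0.16, -5.58 and 1.28 on db/m 1 to 3, and -0.53, -5.86 and -3.39 on db/db 1 to 3, which corresponded to intensities of 1150, 16.0 and 2326 against 626, 14.9 and 90.1. It was measured on 4 arrays and was not well above background on db/m 2 or db/db 2. Each group thus held arrays with a bright signal and an array without a measurable one. Its SD within groups was 3.21, with unmeasured arrays kept at their own signal. No probe of the 29890 tested, each measured on all arrays of at least 1 group, exceeded this, and their median was 0.19. Upk3a did not pass that filter itself, and among other genes that did not, Slc14a2 had a larger SD, 4.61.

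Upk3b was measured on 2 arrays, both labelled db/m. It read -1.60, -6.03 and -1.08 on db/m 1 to 3, and -5.99, -6.05 and -6.47 on db/db 1 to 3. With the labelled db/db arrays set to the lowest signal flagged as above background on each, the labelled db/m mean, with db/m 2 at its own signal, was at least 2.11-fold higher. db/m 2, however, lay with the labelled db/db arrays, so the groups overlapped here too.

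**Figure D1:**
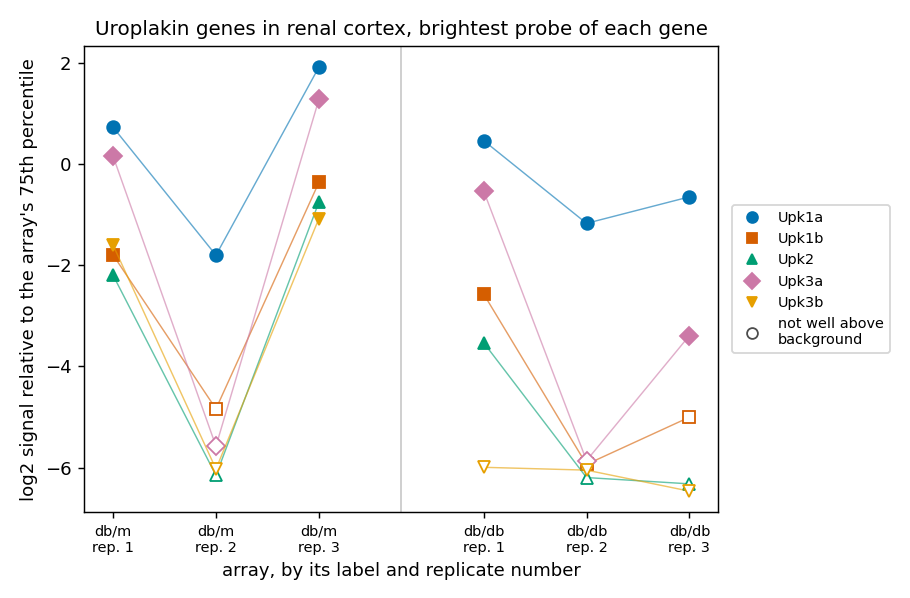
Log2 signal relative to the array's 75th percentile (y axis) of the brightest probe of each uroplakin on the 6 arrays (x axis), with filled symbols for signals well above background, open symbols for the rest, and lines that only join the values of 1 gene within a group. All 5 genes are filled on db/m 1 and db/m 3, while only Upk1a is filled on db/m 2 and db/db 2, and heights of different genes are not comparable because each has its own probe.

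db/m 2 and db/m 3 carried the same label and lay on the same slide, so their contrast involves neither. Between them Upk1a differed 13.2-fold, and with the unmeasured array at the lowest signal flagged as above background, Upk3a was at least 34.1-fold, Upk1b at least 10.9-fold, Upk2 at least 8.35-fold and Upk3b at least 6.67-fold higher on db/m 3. db/db 1 and db/db 2 also shared label and slide. There Upk1a was 3.11-fold higher on db/db 1, Upk3a at least 10.1-fold, Upk1b at least 2.45-fold and Upk2 at least 1.26-fold, whereas Upk3b was measured on neither. In whole tissue, fewer cells of a type and less RNA per cell cannot be told apart.

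Among the keratins, Krt19 varied at least as widely as Upk1a, Krt5 and Krt18 less, and Krt7 and Krt8 little. The SD within groups was 1.75 for Krt19, 0.88 for Krt5 and 0.60 for Krt18, against 1.47 for Upk1a. Krt5, the basal keratin, was measured on all 6 arrays. Its signal was -0.39, -1.83 and -0.03 on db/m 1 to 3, and -1.76, -3.20 and -1.87 on db/db 1 to 3. Only db/m 2 overlapped the labelled db/db range. The group means were -0.75 ± 0.95 and -2.28 ± 0.80 (SD, n = 3 each), and the difference was 1.53 ± 0.56 (SE), with a 95% interval from 0.19 to 2.86. On the single slide that held both labels, db/m 1 exceeded db/db 3 by 1.49.

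Krt19, a type I chain of simple epithelia, was measured on 5 arrays. It read -0.32, -2.98 and 0.78 on db/m 1 to 3, and -0.66, -3.61 and -2.92 on db/db 1 to 3, with db/db 2 not well above background. db/m 3, db/m 1 and db/db 1 were again the highest arrays, in the order seen for the uroplakins. The difference was 1.55, and its 95% interval ran from -1.07 to 4.18.

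Krt18, the usual type I partner of Krt8, read 3.71, 2.79 and 4.47 on db/m 1 to 3, and 3.19, 3.07 and 2.90 on db/db 1 to 3. The labelled db/db arrays lay within 0.29 of each other, while the labelled db/m arrays spanned 1.68 and enclosed them. The difference was 0.60 ± 0.39 (SE), and its 95% interval ran from -0.33 to 1.53.

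Krt7, the type II chain shared by urothelium and collecting duct, read 2.22, 1.64 and 2.20 on db/m 1 to 3, and 2.10, 1.96 and 1.81 on db/db 1 to 3. db/m 2 was the lowest array, and the remaining 5 lay between 1.81 and 2.22. Its difference of 0.06 had a 95% interval from -0.38 to 0.50, and changed sign to -0.12 with the median in place of the 75th percentile as each array's reference.

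Krt8, the type II chain of simple epithelia, was the steadiest of the 10 genes. Its brighter probe read 4.57, 4.65 and 4.77 on db/m 1 to 3, and 4.64, 4.88 and 4.66 on db/db 1 to 3, so all arrays lay within 0.31. Its other probe read 4.47, 4.49 and 4.58, against 4.76, 4.95 and 4.58. The difference was -0.07 for the brighter probe, with a 95% interval from -0.35 to 0.22, and -0.25 for the other, with an interval from -0.55 to 0.05. On the brighter probe it changed sign to 0.09 with quantile normalization. Krt8 was the only gene of the 10 in which db/m 1 and db/m 3 were not the 2 highest arrays.

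**Figure D2:**
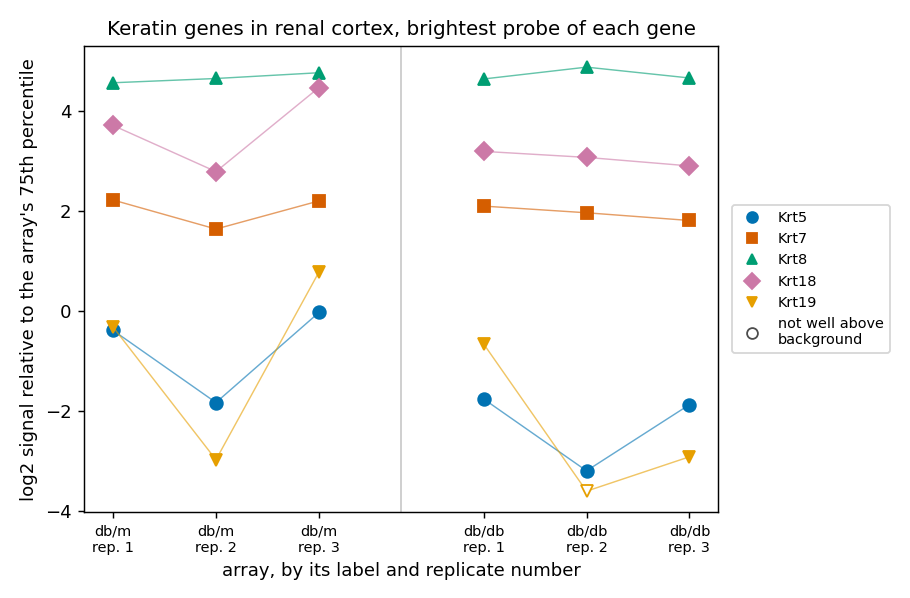
Log2 signal relative to the array's 75th percentile (y axis) of the brightest probe of each keratin on the 6 arrays (x axis), drawn with filled symbols where well above background and open symbols elsewhere, with lines only joining the values of 1 gene within a group. Krt8 stays within 0.31 over all arrays, while Krt19 drops from 0.78 on db/m 3 to -2.98 on db/m 2.

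Across the 10 genes, the arrays of 1 group differed more than the group means did. The contrast of db/m 3 with db/m 2 was larger in size than the group difference in 10 of 10 genes, also with unmeasured arrays at the lowest signal flagged as above background. Among the 6 genes that passed the filter for testing, the same held for 6, against 49.1% of all probes tested. In 4 of these 6 the contrast reached at least 1 on the log2 scale, against 2.31% of all probes tested. db/m 1 and db/m 3 were the 2 highest arrays in 9 of the 10, against 13.1% of the 36339 probes measured on at least 1 array. The contrast of db/db 1 with db/db 2 exceeded the group difference in 7 genes, but in 5 with unmeasured arrays at that lowest signal. Among the 6 tested genes it did so in 4, against 43.6% of all probes tested. On the slide with both labels db/m 1 exceeded db/db 3 in 9 of these genes, which had been picked with these arrays in view. Among them Upk1b, Upk2 and Upk3b were not well above background on db/db 3. The share over all probes was not computed, so nothing is read from this count.

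The comparison of the labels could be fitted for 6 of the 10 genes, those measured on all arrays of at least 1 group, namely Upk1a, Krt5, Krt7, Krt8, Krt18 and Krt19. A low-signal gene entered only if 1 group measured it throughout, which left out Upk1b, Upk2, Upk3a and Upk3b. The difference was above 0 in 5 and below 0 in 1, with a median of 0.67 where all probes tested had a median of -0.03. An unadjusted p under 0.05 in limma's moderated test was reached by Krt5, 1 of the 6, against 17.7% of all probes tested. With at least a 2-fold difference asked for as well, Krt5 alone passed, against 0.96% of all probes tested. By the ordinary test, without limma's moderation, none of the 6 passed either threshold. After Benjamini-Hochberg adjustment no probe passed 0.05, and Krt5 had an adjusted p of 0.26. Because these arrays chose the genes, nothing is read from these counts. On the brightest probe the values of the groups overlapped in 10 of 10 genes, and 24.1% of the probes tested had groups that did not overlap. On the other Krt8 probe they narrowly did not, the lowest labelled db/db value being 4.584 and the highest labelled db/m value 4.581. Of the genes not fitted, Upk1b differed by 2.17, Upk2 by 2.32, Upk3a by 1.88 and Upk3b by 3.27, or by 1.58, 1.64, 1.80 and 1.81 with unmeasured arrays raised to the lowest signal flagged as above background. Leaving out db/m 3 or db/m 2 moved several of these values by over 1.5 times: Upk1b then differed by 1.19 or 3.42, Upk2 by 1.17 or 3.88 and Upk3a by 0.55 or 3.98. Krt18 differed by 0.19 or 1.03 and Krt19 by 0.75 or 2.62.

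**Figure D3:**
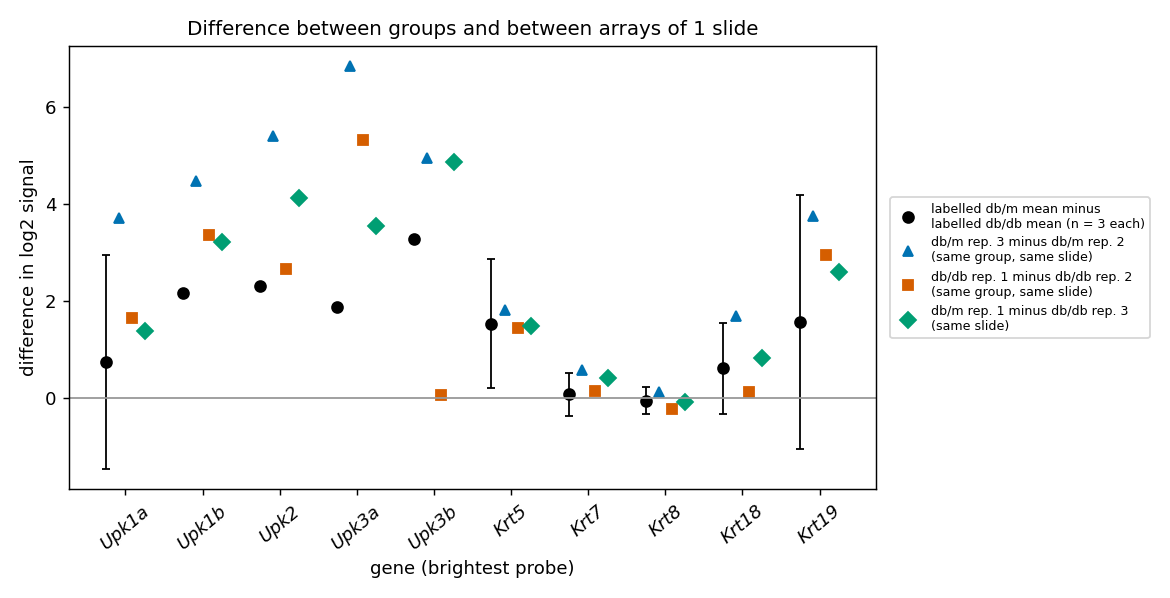
Differences in log2 signal (y axis) for each gene's brightest probe (x axis). Black circles give the labelled db/m mean minus the labelled db/db mean (n = 3 each), with the 95% interval from limma where the gene was tested, and coloured symbols give contrasts between 2 arrays of 1 slide, which include signals below background. For Upk3a the contrast of db/m 3 with db/m 2 is 6.86 and the group difference 1.88.

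Other genes of the urothelium were examined as a list of 22. Of these, 20 were measured on at least 1 array, and the umbrella cell gene Snx31 and the keratin Krt13 on none. db/m 1 and db/m 3 were the 2 highest arrays in 15 of the 20, against 13.1% of all probes measured on at least 1 array. Their summed level, in multiples of the array's 75th percentile, was 24.0 to 35.2 on the labelled db/m arrays and 22.3 to 23.2 on the labelled db/db arrays. Gata3 and Trp63, the brightest genes of the list, together made up most of each sum. Of 14 tested, 4 were higher and 0 lower at an unadjusted p under 0.05 (median difference 0.40), where 6.9% of all probes tested were higher and 10.8% lower. Named by size were Fxyd3, a regulator of the sodium pump (1.46 ± 0.40, SE), the tight junction gene Cldn4 (0.88 ± 0.29) and the epithelial transcription factor Elf3 (0.65 ± 0.24), with adjusted p values in limma above the threshold. In these 3 genes the groups did not overlap, as the rule for naming them required. The fourth was Gata3, a transcription factor of urothelium and collecting duct (0.39 ± 0.16), named after its values were seen.

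Several genes of that list were too dim on some arrays to be tested, and 3 that followed the uroplakins are named after their values were seen. Psca, a surface antigen of the urothelium, read 0.17, -4.94 and 0.69 on db/m 1 to 3, and -3.50, -6.11 and -4.60 on db/db 1 to 3. Krt15, a keratin of basal cells, read -0.81, -5.95 and 0.48, against -2.07, -5.99 and -5.30. Foxa1, a transcription factor of the urothelium, read -2.07, -5.93 and -1.08, against -3.74, -5.94 and -6.34. They were picked for having db/m 3 and then db/m 1 as their highest arrays. Not all urothelium genes did: the umbrella cell keratin Krt20 read -2.96, -1.67 and -3.36, against -3.03, -2.41 and -3.13, so that db/m 3 was its lowest array. The brightest probe of Trp63, a transcription factor of basal cells, differed by -0.02 between the groups.

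Lists for other tissue that a cortex piece can hold are given beside these values, and their part in the result was not tested. The 12 proximal tubule genes, which mark the bulk of cortex, were all measured on all 6 arrays. None of them had db/m 1 and db/m 3 as its 2 highest arrays, against 13.1% of all probes measured on at least 1 array. Their summed level was 1829 on db/m 1 and 2283 on db/m 3, and between 2542 and 2890 on the remaining arrays. The summed uroplakin level was 3.61 on db/m 1 and 8.06 on db/m 3, and between 0.37 and 2.35 on the remaining arrays. Of the 12, 0 were higher and 1 was lower at an unadjusted p under 0.05, against 6.9% and 10.8% of all probes tested. The lower gene was the organic anion transporter Slc22a8 (-0.56 ± 0.21, SE). Of the 9 collecting duct and papilla genes, 5 had db/m 1 and db/m 3 as their 2 highest arrays, against the same 13.1%. Their summed level was 78.2 on db/m 1 and 59.3 on db/m 3 against 39.6 to 48.0 elsewhere, while Aqp3 (-0.13), Scnn1g (-0.30) and Hsd11b2 (-0.41) had a group difference below 0. Of the 8 tested, 1 was higher, the water channel Aqp4 (1.48 ± 0.49, SE), and 1 lower, the corticosterone-inactivating enzyme Hsd11b2 (-0.41 ± 0.17), against 6.9% and 10.8% of all probes tested, and both are named after their values were seen. So is Slc14a2, the urea transporter of the inner medullary collecting duct, which read 3.96, -5.83 and 2.97 on db/m 1 to 3, and 1.77, -4.99 and 0.83 on db/db 1 to 3.

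Smooth muscle genes, which the wall of the renal pelvis also expresses, did not follow the uroplakins. Of 7 measured of 8, none had db/m 1 and db/m 3 highest, against 13.1% of all probes measured on at least 1 array. None of 7 tested passed, against 17.7% of all probes tested, and their summed level was 26.6 to 41.4 against 33.8 to 42.3. Of 6 mesothelium genes 3 were measured, 2 were tested and none passed, against the same 17.7% (summed level 4.53 to 6.52 against 5.11 to 5.77). Of the 3, 1 had db/m 1 and db/m 3 highest, against the same 13.1%. It was mesothelin, Msln, which is named after its values were seen and read -0.33, -5.87 and 0.52 on db/m 1 to 3, and -1.76, -5.87 and -0.79 on db/db 1 to 3. Aldh1a2, a retinoic acid synthesising enzyme, read -1.01, 0.06 and -0.46, against 0.30, 0.34 and -0.27. White blood cell genes were higher in 4 of 6 tested, where 6.9% of all probes tested were higher. These were the integrin chain Itgam (0.70 ± 0.17, SE), the phosphatase Ptprc (0.55 ± 0.16), the macrophage receptor Adgre1 (0.37 ± 0.11) and, named after its values were seen, the lysozyme gene Lyz2 (0.77 ± 0.31). Cd68 (0.22) and Cd3e (0.13) were tested and did not pass, Ms4a1 was measured only on db/db 3, and Cd79a on no array. The summed level of the list was 30.7 to 45.5 against 21.0 to 27.7, without overlap between the groups. Itgam and Lyz2 together made up most of each sum. Of fat cell genes 1 of 3 tested was higher, against the same 6.9%, the fatty acid carrier Fabp4 (0.63 ± 0.25). Cidec differed by 0.10 and Retn by 0.04, and Adipoq and Cfd were measured on no array. Their summed level, most of it Fabp4, was 6.31 to 12.1 against 5.71 to 6.21. Of 8 tubular injury genes tested none passed, against 17.7% of all probes tested (summed level 197 to 255 against 183 to 242).

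**Figure D4:**
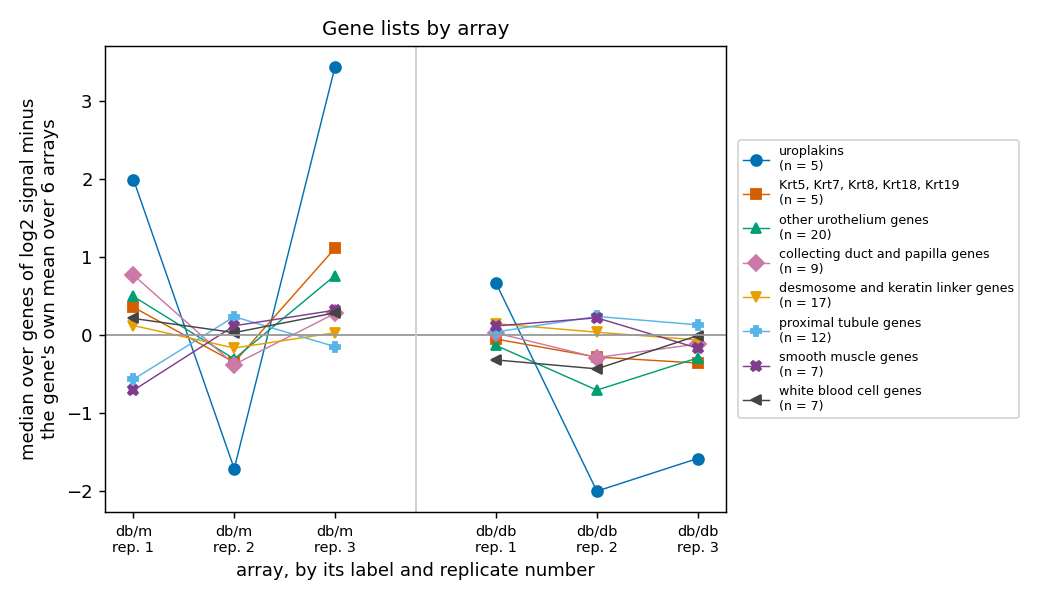
Median over the genes of each list of the log2 signal minus the gene's own mean over the 6 arrays (y axis), by array (x axis), for genes measured on at least 1 array (n in the key), with lines only joining the values of 1 list within a group. The uroplakin median reaches 3.44 on db/m 3 and falls to -2.01 on db/db 2, the other urothelium genes follow it from 0.76 to -0.71, and the proximal tubule genes are lowest, at -0.57, on db/m 1.

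The proteins that anchor keratins, desmosome and linker genes, were measured in 17 of 19 cases. Of the 17, 7 had db/m 1 and db/m 3 highest, against 13.1% of all probes measured on at least 1 array. Of the 17 tested, 0 were higher and 1 lower, against 6.9% and 10.8% of all probes tested. The lower gene was ladinin, Lad1 (-0.36 ± 0.14, SE). The median difference of the list was 0.03, and its summed level was 124 to 144 against 132 to 159. Of 47 other keratin genes on the array, 23 were measured and 15 tested, and 3 were higher and 0 lower, against 6.9% and 10.8% of all probes tested, with a median difference of 0.27 against -0.03. These were Krt222 (0.65 ± 0.22, SE) and, named after their values were seen, Krt6a (1.26 ± 0.43) and Krt80 (0.75 ± 0.25). The list shares 5 genes with that of the urothelium. Their summed level was 14.4 to 17.9 on the labelled db/m arrays and 11.4 to 12.9 on the labelled db/db arrays.

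Genes with a profile most like the uroplakins were sought with Upk1a, the only one tested, as the root mean square distance between centred log2 signals over the 6 arrays among 13875 genes. The 8 closest were Klf5 (0.37), Npy (0.42), Reln (0.43), Muc20 (0.43), Slc39a4 (0.45), Nhlrc4 (0.46), Cd79b (0.47) and Ptger1 (0.48). Klf5, a zinc finger transcription factor of epithelia, read -1.11, -3.23 and -0.75 on db/m 1 to 3, and -1.69, -3.20 and -2.67 on db/db 1 to 3. Muc20, a membrane mucin, read 2.86, 0.16 and 3.02, against 1.38, 0.48 and 0.81. All 8 had db/m 3, db/m 1 and db/db 1 as their highest arrays in that order, which follows largely from choosing them for likeness to Upk1a. Among the 10 genes, Krt19 was nearest to Upk1a at 0.58, with 20 other genes closer, followed by Krt5 at 0.75 with 95 closer and Krt18 at 0.76 with 101 closer. Upk3a, whose spread was wider, stood at 1.61 with 13664 closer, as the distance compares size as well as order.

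**Figure D5:**
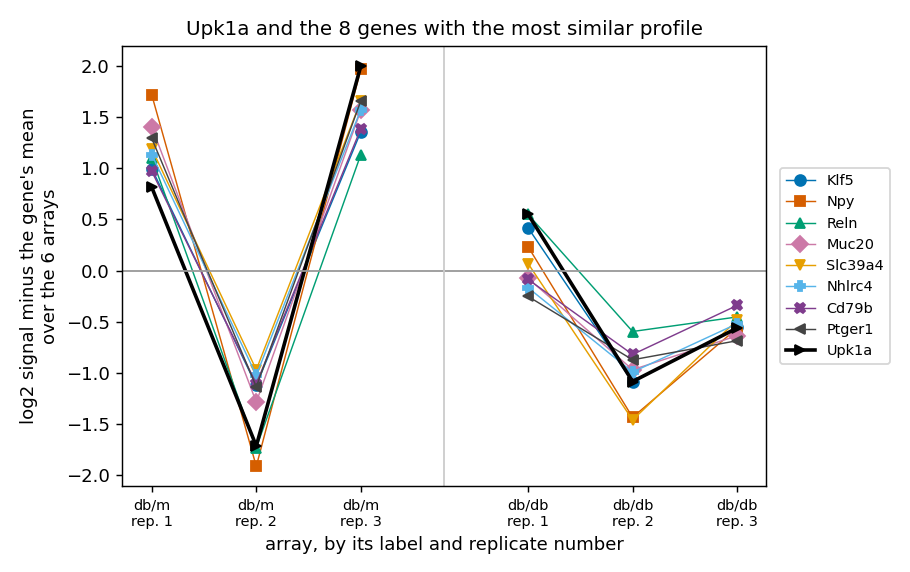
Log2 signal minus each gene's own mean over the 6 arrays (y axis), by array (x axis), for Upk1a (thick black line) and the 8 genes closest to it, with lines only joining the values of 1 gene within a group. The genes were chosen for this likeness, and each is highest on db/m 3 and next highest on db/m 1.

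The 5 uroplakin genes lie on 5 chromosomes, so none of them is a neighbour of another. On GRCm38.p6, Krt7, Krt5, Krt8 and Krt18 lie within 620 kb of chromosome 15 among 25 protein-coding keratin genes, and Krt8 and Krt18 are 23.9 kb apart, although Krt8 stayed level where Krt18 did not. RefSeq promoter windows matched 7 of the 10 genes. The 250 bases before the start are shown for the 3 uroplakins with a window and, as the steady contrast, for Krt8, on the gene's strand, with capitals for matches to any of 9 motifs on either strand.
Upk1a, chr7:30612735-30612984, minus strand: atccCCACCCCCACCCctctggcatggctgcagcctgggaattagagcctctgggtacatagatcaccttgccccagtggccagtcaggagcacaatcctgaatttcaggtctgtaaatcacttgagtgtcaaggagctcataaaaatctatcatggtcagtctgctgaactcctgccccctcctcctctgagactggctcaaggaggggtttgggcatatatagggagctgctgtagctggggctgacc
Upk3a, chr15:85016891-85017140, plus strand: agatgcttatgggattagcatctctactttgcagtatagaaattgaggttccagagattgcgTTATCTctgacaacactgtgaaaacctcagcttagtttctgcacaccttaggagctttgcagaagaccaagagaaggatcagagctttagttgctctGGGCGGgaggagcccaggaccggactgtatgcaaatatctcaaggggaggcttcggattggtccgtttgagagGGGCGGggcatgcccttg
Upk3b, chr5:136038246-136038495, plus strand: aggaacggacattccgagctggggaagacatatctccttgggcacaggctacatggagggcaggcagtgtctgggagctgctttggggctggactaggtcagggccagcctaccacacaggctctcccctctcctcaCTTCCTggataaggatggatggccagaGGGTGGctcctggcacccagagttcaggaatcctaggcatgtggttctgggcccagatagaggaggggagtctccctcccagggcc
Krt8, chr15:102004343-102004592, minus strand: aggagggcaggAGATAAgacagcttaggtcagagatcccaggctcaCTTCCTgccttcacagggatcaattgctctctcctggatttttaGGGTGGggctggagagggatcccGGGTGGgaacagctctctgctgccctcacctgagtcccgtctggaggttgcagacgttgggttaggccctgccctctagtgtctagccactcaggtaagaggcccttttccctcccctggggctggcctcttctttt
Capitals in Upk1a, Upk3b and Krt8 include CCACCC, the core bound by Krüppel-like factors, which 28.1% of all 32851 windows of this length held. The GC box GGGCGG was found in Upk3a and in 32.7% of all windows. The GATA factor site AGATAA was found in Upk3a and Krt8 and in 9.99% of all windows. An extended form of the ETS factor core, AGGAAG, was found in Upk3b and Krt8 and in 29.5%. The shorter core alone was not searched. None of the 9 motifs was found in all 3 uroplakin windows. GATA sites were sought only in the forms AGATAA and TGATAA, and other forms were not searched. The TATA box was sought only in the form TATAAA, and other forms were not searched. That form, held by 12.4% of all windows, was in none of the 4 shown. Nor were a second GATA site, TGATAA (7.94%), the AP-1 site TGANTCA (6.75%), the grainyhead site AACCGGTT (0.116%) or its looser form AACCNGTT, which includes the former (1.79%).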

How the data were processed

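The authors hybridised Cy3-labelled RNA of each sample to a one-colour Agilent array, and the deposited scanner files, from Agilent Feature Extraction 10.7.1.1 per the labels, hold background-subtracted intensities for 62976 spots. Also deposited was a table of log2 values, whose normalization is not given in the sources used here and which served as an alternative. In the file of db/m 1, 99.5% of the intensities were rounded to 3 digits and 71 gene names differed, so names came from db/db 1. Control and outlier spots were left out and spots of a probe averaged, leaving 56470 probes, none saturated. The log2 intensity minus the array's 75th percentile was compared for 29890 probes that the software flagged as well above background throughout at least 1 group, with lmFit and eBayes in limma 3.58.1 (R 4.3.3), checked on simulated data. Exact permutation of 3 against 3 cannot give a p under 0.1. The labels do not say that samples are separate animals, while the study's methods name 3 treated and 3 non-treated db/db mice for the arrays. The p-values measure the spread between these samples.

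The brightest probe stands for a gene. From each other list up to 3 genes were named, those with the largest difference among genes with an unadjusted p under 0.05 and no overlap, and the 8 genes most like Upk1a. Members, lists, motifs and tests were chosen with earlier results of these data known. Lists covered urothelium, desmosomes, collecting duct and papilla, proximal tubule, injury, mesothelium, smooth muscle, fat, white blood cells and other keratins. Alternatives changed scaling, background correction, filter, test, source, slide, replicate block and single arrays.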

Additional observations from a re-analysis of the deposited data

How the results depend on the processing

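The 10 genes' differences kept their direction under the alternatives tried, except Upk1a (-0.09 without db/m 3), Krt7 (4 alternatives) and Krt8 (3). Between 0 and 4 of the tested genes passed an unadjusted p under 0.05, and as many passed the screen that also asks for a 2-fold difference. That number was 0 with slide as a block and by the ordinary t-test, and 2 with no filter on dim probes. With 1 array left out it ran from 0 to 4: 4 without db/m 2, and 0 without db/m 1, db/m 3 or db/db 2. The unadjusted limma p of Krt5 ranged from 0.000303 with the replicate block to 0.21 with slide as a block, which rests on db/m 1 against db/db 3. The median difference of the tested genes was 0.67, 1.54 with no filter, and 0.08 to 1.40 with 1 array left out. The cause of these shifts was not tested.

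Over all probes, 5282 passed an unadjusted p under 0.05, 2902 with slide as a block and 2301 to 7249 with 1 array left out (2301 without db/m 3, 3257 without db/db 1, 2622 without db/db 2). The screen passed 287 probes, 188 with quantile normalization, 67 with normexp and 719 without the filter. It passed 139 with probes above background on all 6 arrays and 112 by the ordinary t-test. With the deposited log2 values it passed 176, and with slide as a block 843. With 1 array left out it passed 136 to 809. Among these were 461 without db/m 1, 626 without db/m 2, 136 without db/db 2 and 809 without db/db 3. After adjustment 0 probes passed in limma and by the ordinary t-test, and at most 123 elsewhere, without db/db 3. Centring on the median shifted the median of all probes from -0.03 to -0.21 and the split of higher and lower calls from 2061 and 3221 to 904 and 5773. Whether replicate numbers pair the samples was not settled. Deviations of same-numbered arrays correlated at 0.35, 0.15 and 0.05, and those of differently numbered arrays at -0.34 to 0.15. With the replicate block 6559 probes and 1 of the tested genes passed. Depth has no counterpart here, and signals below background limited 4 of the uroplakins.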
